A study of Mus musculus with 6 samples.

Results

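The transcription factors that drive epithelial-mesenchymal transition (EMT) were compared between T1 and T2 tumor cells. The group was a fixed list of 10 genes chosen by name: Zeb1, Zeb2, Snai1, Snai2, Snai3, Twist1, Twist2, Prrx1, Foxc2 and Tcf4. All 10 were among the 24129 gene names of the expression table. Of these 10, 7 averaged at least 10 normalized counts per library and were compared between T1 and T2 cells, within a test of 11514 genes. Zeb1, Snai2 and Twist2 had fewer reads and are described by their values.

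EMT is a change of epithelial cells, which are held together by E-cadherin and other junction proteins, into migratory cells rich in vimentin. The Zeb and Snail factors are zinc finger repressors that bind E-box motifs in the promoters of epithelial genes and recruit corepressors to them. Twist1 and Twist2 are basic helix-loop-helix (bHLH) proteins that pair with E proteins such as the product of Tcf4, and Prrx1 and Foxc2 are a homeobox and a forkhead factor that also favour the mesenchymal state. In mammary carcinoma these factors are studied for their part in invasion, dissemination and resistance to therapy, and cells may express some of them while keeping epithelial genes.

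T1 and T2 cells both descend from 4T1, a BALB/c mammary carcinoma line that had been made to express GFP and was injected into the mammary fat pad. Both were sorted on GFP from the culture of a sorted fibroblast fraction of a primary tumor, which tumor cells had outgrown, and both were then kept in the same medium. T1 cells, which the labels name 4T1A, had low GFP, an adherent epithelial morphology and a high proliferation rate, and were aggressive in mice. T2 cells, which the labels name 4T1NA, had high GFP, were round, loosely adherent and less aggressive, and were passaged without trypsin. There were 3 libraries of each, and the labels do not say whether they came from separate animals or sorts, so that p-values measure the spread between these libraries. The parental 4T1GFP line is not analysed here.

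The 6 libraries held between 18133227 and 20839686 reads on genes. Values are normalized counts, that is reads divided by a size factor of the library, and 1 read was worth 0.928 to 1.06 normalized counts. Log2 fold changes are T1 against T2 on the log2(normalized count + 1) scale, with their standard error (SE), and a gene was called where its limma p-value, after Benjamini-Hochberg adjustment, was under 0.01. T1 and T2 cells differed widely: 49.5% of the 11514 genes were called, 25.1% higher and 24.4% lower in T1 cells, and 8.37% also had an absolute log2 fold change above 2. The values of T1 and T2 cells did not overlap for 68.1% of the genes compared.

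Most EMT transcription factors with enough reads were lower in T1 cells, the population with epithelial morphology. Zeb2, Twist1, Foxc2 and Prrx1, 4 of the 7 members compared, were called lower in T1 cells, against 24.4% of all genes. Snai3 was called higher, against 25.1% of all genes. In either direction 5 of the 7 were called, against 49.5% of all genes. Snai1 and Tcf4 were not called. Past the further limit of a log2 fold change of 2 there were 2 members, Snai3 (higher in T1 cells, against 4.17% of all genes) and Prrx1 (lower, against 4.2%). The T1 and T2 values did not overlap for 6 of the 7, all but Tcf4, against 68.1% of all genes. Snai3 and Prrx1 passed the filter on low values only through the population in which they were higher. The median log2 fold change of the 7 was -1.41, and that of all genes compared was -0.0055.

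**Figure D1:**
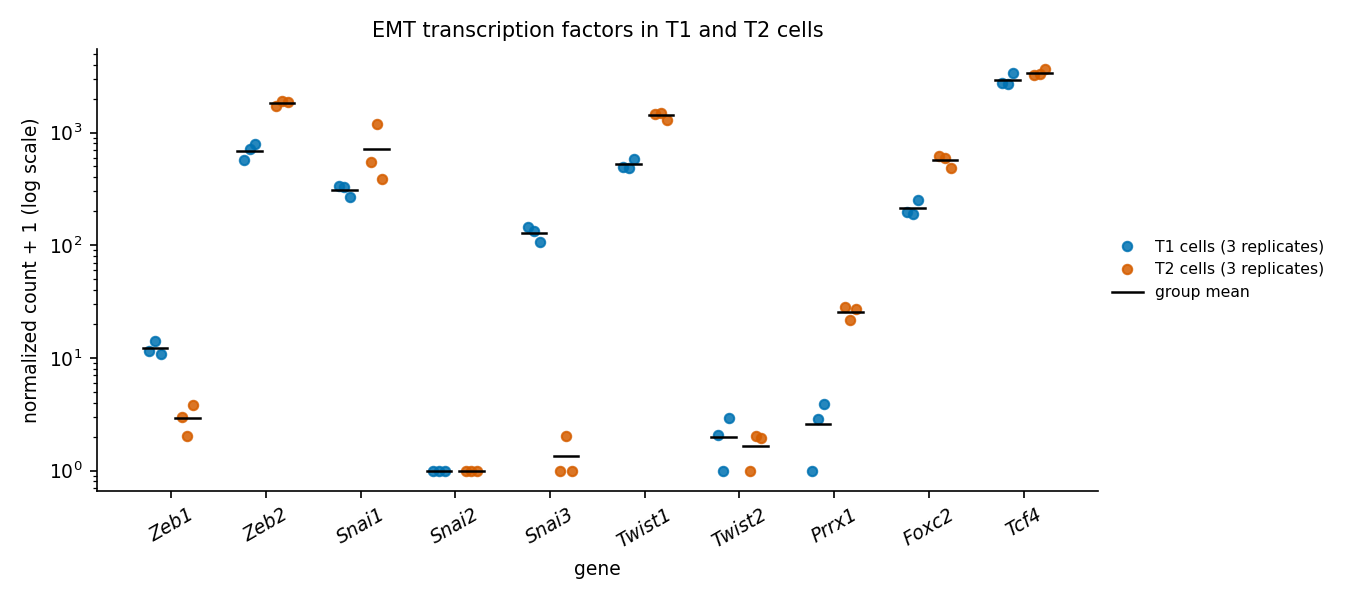
Normalized count plus 1 on a log axis for each of the 10 EMT transcription factors in the 3 T1 and the 3 T2 libraries, with points for libraries and lines for group means. Zeb2, Twist1 and Foxc2 sit higher in all 3 T2 libraries, Snai3 is near 0 in T2 cells and between 105 and 144 in T1 cells, and Snai2 is at 0 in all 6.

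In the Zeb family the abundant gene was lower in T1 cells and the scarce gene had more reads there. Zeb2, a zinc finger repressor of E-cadherin encoded on chromosome 2, had 572, 708 and 789 normalized counts in T1 replicates 1, 2 and 3, and 1724, 1895 and 1847 in T2 replicates 1, 2 and 3. All T2 values lay above all T1 values. The level was 2.64 times as high in T2 cells, with a log2 fold change of -1.41 (SE 0.12, n = 3 and 3, limma adjusted p = 3.5e-06), and between -1.51 and -1.28 when each library was left out in turn.

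Zeb1, its paralog, was close to absent in both populations. Reads in T1 replicates 1, 2 and 3 numbered 10, 14 and 10, and in T2 replicates 2, 1 and 3. The groups did not overlap, with more reads in each T1 library. Summed over libraries, 34 reads against 6 gave a rate 5.72 times as high in T1 cells (95% exact interval 2.38 to 16.7, counting error only). Zeb1 was below the filter on low values, and in the fit without that filter its log2 fold change was 2.09 (SE 0.40, limma adjusted p = 0.00126).

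Per kilobase of exon, T1 cells had 34.6 ± 5.48 and T2 cells 91.4 ± 4.42 normalized counts of Zeb2 (SD, n = 3), and 1.08 ± 0.165 and 0.187 ± 0.0858 of Zeb1. With 1 added to each level per kilobase, the log2 ratio of Zeb1 to Zeb2 was -3.87, -4.01 and -4.38 in the T1 libraries and -6.20, -6.45 and -6.20 in the T2 libraries. Zeb2 was thus the main Zeb transcript in both populations, and the ratio differed by 2.20 (exact permutation p = 0.1, two-sided, the smallest that 3 against 3 allow). Zeb1 is so low that the size of this difference depended on the added value, from 1.52 with 5 added to 3.49 with 0.1 added. The antisense transcript Zeb2os, which overlaps the start of Zeb2 on the opposite strand, had 2, 1 and 7 reads in T1 cells and 22, 19 and 11 in T2 cells. The strand setting of the counting is not given in the sources used here, and these reads are few beside the 2110 and 5603 reads of Zeb2 in T1 and T2 cells.

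In the Snail family, Snai3 was higher in T1 cells, Snai1 was not called and Snai2 was not detected. Snai1, the founding Snail repressor of E-cadherin, is a short-lived protein whose transcript responds quickly to signals. It had 338, 326 and 264 normalized counts in the T1 libraries and 550, 1201 and 383 in the T2 libraries. The groups did not overlap, but T2 replicate 2 stood well above the other T2 libraries. The log2 fold change was -1.04 (SE 0.33, limma adjusted p = 0.0182) and was not called. Without T2 replicate 2 it was -0.58 (limma adjusted p = 0.0251), and without T2 replicate 3 it was -1.40 and passed the test (adjusted p = 0.00386). The edgeR quasi-likelihood test on the recovered reads called it (adjusted p = 0.00989) and DESeq2 did not (adjusted p = 0.0271), and over all alternatives its adjusted p ran from 0.00219 to 0.0612.

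The promoter of Snai1 held the motif that these repressors bind. RefSeq promoter entries were found for 5 of the 10 members (Snai1, Zeb2, Twist1, Twist2 and Prrx1). The letters CAGGTG, an E-box, were searched on either strand in the 250 bases before each gene start, and only the Snai1 entry held them among these 5 members, 126 bases before the start. Of all 27025 genes with an entry, 19.4% held the motif. The Snai1 window is chr2:167537945-167538194 on the plus strand of GRCm38.p6, shown here 5′ to 3′ with the E-box, which reads CACCTG on this strand, in capitals.
Snai1: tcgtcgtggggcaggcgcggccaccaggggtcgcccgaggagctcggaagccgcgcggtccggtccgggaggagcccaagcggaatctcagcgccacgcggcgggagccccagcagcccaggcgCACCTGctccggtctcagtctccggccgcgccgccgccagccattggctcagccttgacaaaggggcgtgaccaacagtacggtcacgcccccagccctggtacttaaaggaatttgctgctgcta

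Snai3, the least studied Snail gene, showed the largest difference of the group. It had 144, 132 and 105 normalized counts in the T1 libraries, and 0, 1.02 and 0 in the T2 libraries. In reads, T1 cells had 386 and T2 cells had 1, a ratio of 389.9 (95% exact interval 69.6 to 15439, counting error only). The log2 fold change was 6.65 (SE 0.39, limma adjusted p = 3.16e-07), and because of the near absence in T2 cells its size depended on the value added before taking logs, from 4.62 with 5 added to 7.45 with 0.5 added. Snai2, which encodes Slug, a repressor active in basal mammary cells, had 0 reads in all 6 libraries. A count of 0 allows up to 3 reads, or 2.78 to 3.17 normalized counts, in a library.

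The balance within the Snail family differed as well. With 1 added as for the Zeb genes, the log2 ratio of Snai1 to Snai2 plus Snai3 per kilobase was 1.23, 1.30 and 1.32 in the T1 libraries and 8.41, 8.83 and 7.89 in the T2 libraries, a difference of -7.10 (exact permutation p = 0.1, two-sided, the smallest possible). Its size was set by the added value, from -5.01 with 5 added to -9.68 with 0.1 added, since the T2 libraries held 1 read of Snai3 and none of Snai2. T1 cells contained both Snai1 and Snai3 transcripts, and T2 cells almost only Snai1. Snai3 lies on the minus strand of chromosome 8 (122454208 to 122460733, GRCm38). Of its nearest annotated neighbours, which were looked at after the values of Snai3 were seen, Mvd, an enzyme of sterol synthesis 10785 bases away, was also higher in T1 cells, with 1115, 1002 and 1173 normalized counts against 148, 149 and 151. Its log2 fold change was 2.86 (SE 0.11, limma adjusted p = 1.76e-08). Rnf166, 5413 bases away on the other side, was not called, with a log2 fold change of -0.36 (limma adjusted p = 0.0323). Beyond Rnf166, Ctu2, 15409 bases from Snai3, was called higher in T1 cells (0.98, SE 0.12, limma adjusted p = 6.55e-05). Beyond Mvd, Cyba, 21277 bases from Snai3, was not called (0.26, limma adjusted p = 0.0442).

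**Figure D2:**
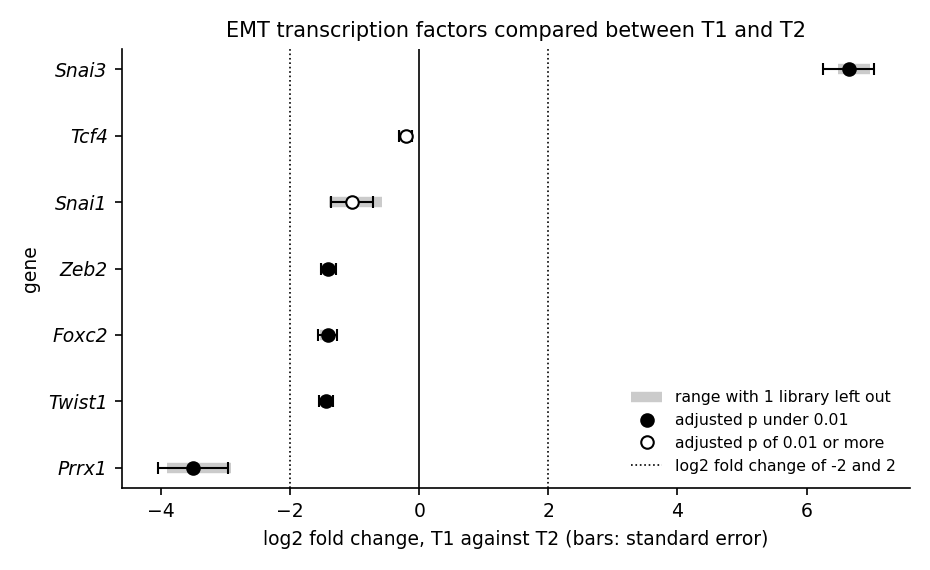
Log2 fold change of T1 against T2 cells for the 7 EMT transcription factors compared, with bars for the standard error and grey bands for the range when each library is left out. Zeb2, Twist1 and Foxc2 lie close together near -1.4, Snai3 lies at 6.65 and Prrx1 at -3.51. The widest band is that of Prrx1 (-3.91 to -2.92), followed by that of Snai1 (-1.40 to -0.58).

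Twist1 was the most abundant member per kilobase of exon and was lower in T1 cells. This bHLH factor, needed for mesoderm and cranial development, had 494, 485 and 581 normalized counts in the T1 libraries and 1474, 1491 and 1282 in the T2 libraries. The 3 values within each population were close, and the groups were far apart. T2 cells had 2.72 times the T1 level, with a log2 fold change of -1.44 (SE 0.11, limma adjusted p = 1.51e-06). Twist2, its near relative, was at 1.06, 0 and 1.95 normalized counts in the T1 libraries and 0, 1.02 and 0.928 in the T2 libraries. These are 3 reads against 2, and no difference was detectable at this depth (rate ratio 1.52, 95% exact interval 0.174 to 18.1).

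The genes whose values followed Twist1 most closely over the 6 libraries were Lrp5, a Wnt coreceptor (Pearson r = 0.9995), Tmem179 (r = 0.9991) and Osbpl5, an oxysterol binding protein family member (r = 0.9990), on the log2(normalized count + 1) scale. The libraries fall into 2 groups, so that any gene with a like difference scores highly, and 1597 genes had an r above 0.95.

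Tcf4 encodes E2-2, an E protein that pairs with Twist and other bHLH factors, and is not the Wnt effector of the same nickname. It was the member with the most reads, with 2734, 2699 and 3395 normalized counts in the T1 libraries and 3213, 3330 and 3639 in the T2 libraries. The ranges overlapped, since T1 replicate 3 lay above 2 of the T2 libraries. The log2 fold change was -0.21 (SE 0.10, limma adjusted p = 0.0886). Without T1 replicate 3 it was -0.32 and passed the test (adjusted p = 0.00522).

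E proteins are held back by the Id proteins, which bind them but not DNA, and 3 of the 4 Id genes were called lower in T1 cells. Of the 6 partners and inhibitors on the list, all were compared, 0 were called higher and 4 lower in T1 cells (25.1% and 24.4% over all genes), and the median log2 fold change was -2.06. Tcf3, which encodes E2A, had 4450, 3866 and 4281 normalized counts in the T1 libraries and 7407, 6416 and 5690 in the T2 libraries (log2 fold change -0.63, SE 0.10, limma adjusted p = 0.00036). Tcf12, which encodes HEB, was not called, with means of 2394 ± 164 and 2376 ± 167 (SD, n = 3) and an adjusted p of 0.919.

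Id1, Id2 and Id4 were the Id genes called lower in T1 cells. Id1, a target of BMP signalling, had 484, 2203 and 478 normalized counts in the T1 libraries and 5689, 11914 and 5090 in the T2 libraries (log2 fold change -3.13, SE 0.52, limma adjusted p = 0.00044). Id2, a regulator of mammary differentiation, had 299, 1095 and 282 against 2770, 4225 and 3115 (-2.87, SE 0.42, adjusted p = 0.000188). Replicate 2 was the highest library of its population for both genes, yet the groups did not overlap.

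Id4, which is known from basal mammary cells, was at 10.6, 4.65 and 0.976 normalized counts in the T1 libraries and 341, 438 and 337 in the T2 libraries (log2 fold change -6.19, SE 0.52, limma adjusted p = 3.46e-06). It passed the filter on low values only through its T2 values. Id3 had 1850, 4442 and 1729 against 4769, 9381 and 4288. Its ranges overlapped because of T1 replicate 2, and it was not called (-1.25, SE 0.36, adjusted p = 0.0115). Without T1 replicate 2 its log2 fold change was -1.69 and passed the test (adjusted p = 0.000559). It also passed with 5 added before taking logs (adjusted p = 0.00969) and with quantile normalization (0.00981).

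Summed per kilobase of exon, E proteins fell short of Id proteins in every library, and more so in T2 cells. In T1 cells this depended on the length. Before division by length, E proteins had more normalized counts than Id proteins in every T1 library and fewer in every T2 library. With 1 added, the log2 ratio of Tcf3, Tcf4 and Tcf12 to the 4 Id genes was -0.23, -1.997 and -0.15 in the T1 libraries and -2.07, -3.21 and -2.26 in the T2 libraries. The difference of the means was 1.72 (exact permutation p = 0.1, two-sided, the smallest possible), and 1.79 without division by length. On the scale per kilobase, however, T1 replicate 2 lay barely above the highest T2 library. Replicate 2 was the highest T2 library for Snai1 and for all 4 Id genes, and the highest T1 library for Id1, Id2 and Id3. The origin of this was not tested.

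**Figure D3:**
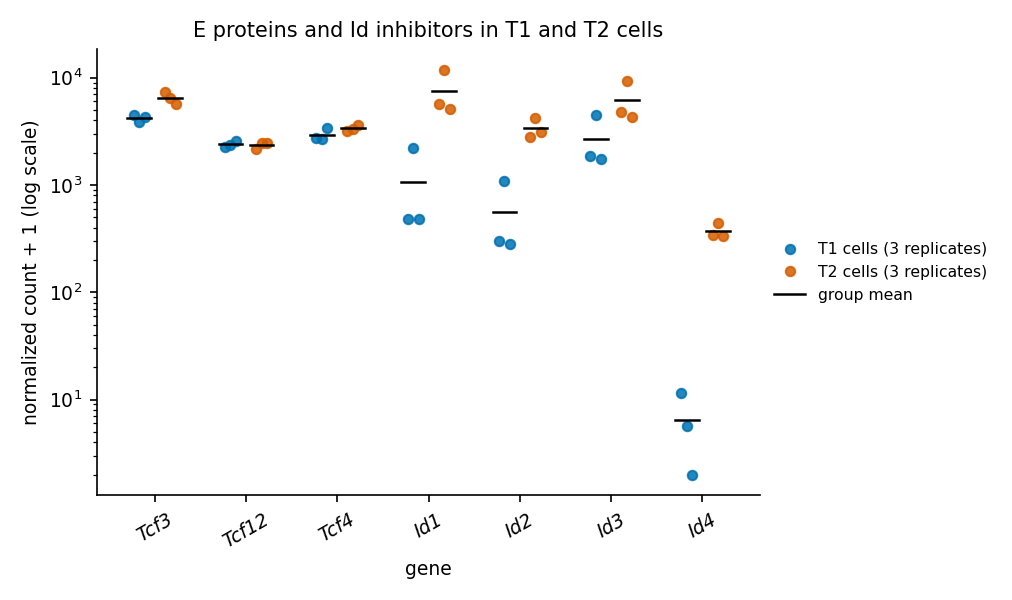
Normalized count plus 1 on a log axis for the E protein genes Tcf3, Tcf12 and Tcf4 and the inhibitor genes Id1 to Id4 in the 3 T1 and the 3 T2 libraries, with lines for group means. Tcf3 sits higher in T2 cells and Tcf12 and Tcf4 overlap, Id1, Id2 and Id4 sit higher in T2 cells, and T1 replicate 2 stands above the other T1 libraries for Id1, Id2 and Id3.

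Prrx1, a homeobox factor of limb and craniofacial mesenchyme, was almost absent from T1 cells and low in T2 cells. It had 0, 1.86 and 2.93 normalized counts in the T1 libraries and 27.4, 20.5 and 26.0 in the T2 libraries. Read totals were 5 and 76, a rate 15.0 times as high in T2 cells (95% exact interval 6.17 to 47.7, counting error only). The log2 fold change was -3.51 (SE 0.54, limma adjusted p = 0.000261), and ran from -2.19 with 5 added before taking logs to -3.97 with 0.5 added. Prrx1 passed the filter only through its T2 values, and at 2.23 ± 0.331 normalized counts per kilobase (SD, n = 3) it remained low in T2 cells beside the other members.

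Foxc2, a forkhead factor of mesoderm and lymphatic vessels, was intermediate in level and lower in T1 cells. It had 196, 190 and 250 normalized counts in the T1 libraries and 623, 594 and 485 in the T2 libraries, with no overlap. T2 cells had 2.68 times the T1 level, with a log2 fold change of -1.42 (SE 0.15, limma adjusted p = 1.84e-05). Zeb2, Twist1 and Foxc2, which lie on chromosomes 2, 12 and 8, thus had log2 fold changes between -1.44 and -1.41.

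The forkhead genes beside Foxc2 on chromosome 8 differed in opposite directions. These neighbours were looked at after the values of Foxc2 were seen. Foxf1, a forkhead factor of visceral mesenchyme 28026 bases away, had 785, 512 and 1037 normalized counts in the T1 libraries and 38.2, 35.8 and 30.6 in the T2 libraries (log2 fold change 4.39, SE 0.24, limma adjusted p = 1.66e-07). Foxl1, a forkhead factor of gut mesenchyme 9044 bases away on the other side, had 12.7, 17.7 and 19.5 against 344, 271 and 341 (-4.19, SE 0.22, adjusted p = 1.33e-07).

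Mthfsd, the gene between Foxf1 and Foxc2, was not called (log2 fold change 0.31, SE 0.09, limma adjusted p = 0.0158). Within 1 cluster of 3 forkhead genes, Foxf1 was therefore higher in T1 cells, and Foxc2 and Foxl1 were higher in T2 cells. Foxc2 and Snai3 both lie within the span of a long annotated gene, Gm20388, and reads could be shared with it.

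**Figure D4:**
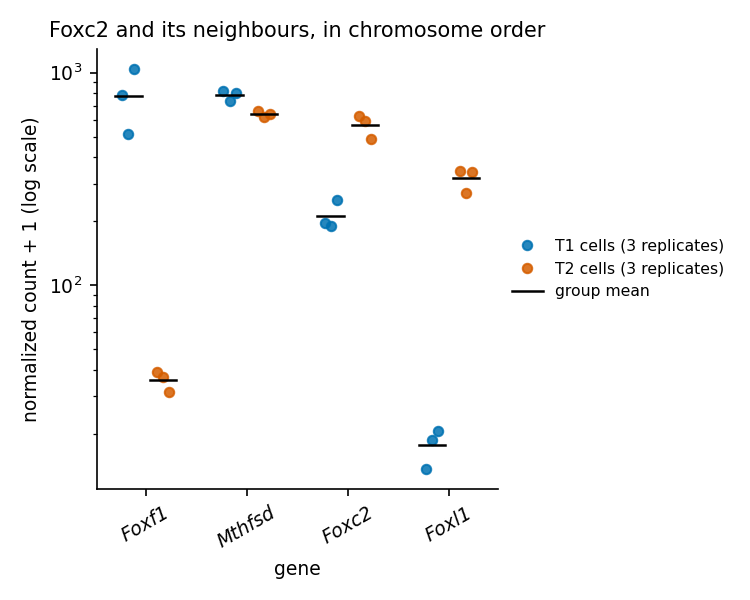
Normalized count plus 1 on a log axis for Foxc2 and its neighbours in chromosome order, in the 3 T1 and the 3 T2 libraries, with lines for group means. Foxf1 is higher in T1 cells (means 778 and 34.9), Foxc2 and Foxl1 are higher in T2 cells, and Mthfsd differs little.

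Levels of different genes can be compared only per length. Divided by the length of all exons of the gene, the order in T1 cells was Twist1 (319 ± 32.4 normalized counts per kilobase, SD, n = 3), Snai1 (191 ± 24.2), Tcf4 (107 ± 14.3), Snai3 (78.1 ± 12.1), Foxc2 (77.7 ± 12.2) and Zeb2 (34.6 ± 5.48). Snai3 and Foxc2 did not differ beyond their spread, and Zeb1, Twist2, Prrx1 and Snai2 followed at 1.08 or less. In T2 cells the order was Twist1 (870 ± 71.1), Snai1 (439 ± 267), Foxc2 (208 ± 26.6), Tcf4 (124 ± 8.05) and Zeb2 (91.4 ± 4.42). The means of Snai1 and Foxc2 were within the spread of Snai1 between libraries, but Snai1 stood above Foxc2 in each T2 library.

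Twist1 stood above 70.8% of all genes compared in T1 cells and above 90.1% in T2 cells, on this scale. Zeb1 and Twist2 stood above at most 1.29% in either population. Twist1 was first in all 6 libraries, but the length chosen mattered. With the length of the longest transcript, chosen as an alternative after the values were seen, Twist1 was first in 3 libraries, those of T2 cells, and Tcf4, a gene with 62 annotated transcripts, was first in the T1 libraries. The sum over the 10 members per kilobase of exon was 810 ± 29.0 in the T1 and 1735 ± 335 in the T2 libraries (SD, n = 3), with all T2 libraries above all T1 libraries. Twist1 made up 39.4 ± 2.58% of it in the T1 and 50.9 ± 6.23% in the T2 libraries, and Snai3 made up 9.68 ± 1.76% in T1 cells and next to nothing in T2 cells.

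EMT transcription factors act through corepressors and chromatin enzymes, and these were called about as often as all genes. Of 20 listed, 19 were compared, 5 were called higher and 4 lower in T1 cells (25.1% and 24.4% over all genes), and the median log2 fold change was -0.0008. Ctbp1, the corepressor recruited by Zeb proteins, had means of 6287 ± 480 and 6576 ± 427 normalized counts in T1 and T2 cells (SD, n = 3, adjusted p = 0.506), and Ctbp2 was higher in T1 cells by 0.43 on the log2 scale (SE 0.08, limma adjusted p = 0.00093).

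Ajuba, a LIM protein that bridges Snail to its corepressors and also acts at cell junctions, stood apart on this list, with 6383, 6135 and 5839 normalized counts in the T1 libraries and 798, 757 and 609 in the T2 libraries (log2 fold change 3.09, SE 0.10, limma adjusted p = 7.07e-09). Other differences were modest. Prmt5, an arginine methyltransferase, and Eed, a Polycomb subunit, were higher in T1 cells with log2 fold changes of 0.73 and 0.59. Bmi1, a Polycomb protein, the corepressor scaffold Sin3a and Limd1, a relative of Ajuba, were lower with log2 fold changes of -0.79, -0.56 and -0.35 (limma adjusted p from 8.01e-05 to 0.00466 over these 5). The call of Limd1 was lost without T1 replicate 2 or T2 replicate 2 or 3 (adjusted p up to 0.0199).

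Snail and Twist proteins are also set by degradation, and regulators of their stability were read as a list. Of 18 listed, 16 were compared, 3 were called higher and 3 lower in T1 cells (25.1% and 24.4% over all genes), and the median log2 fold change was -0.09. Gsk3b, the kinase that marks Snail for destruction, was not called (-0.25, limma adjusted p = 0.0175), nor was Btrc, the ligase subunit that reads the mark (-0.08, adjusted p = 0.599). Loxl3 is a lysyl oxidase family member reported to stabilise Snail. It had 98.4, 67.0 and 108 normalized counts in the T1 libraries and 4028, 3372 and 3919 in the T2 libraries (-5.38, SE 0.17, limma adjusted p = 4e-09). Loxl2, on the same list but below the filter on low values, went the other way. Its reads numbered 18, 9 and 9 in the T1 libraries and 0 in each T2 library.

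The remaining calls on that list were small. The kinases Csnk1e and Gsk3a and the ligase subunit Fbxl5 were higher in T1 cells with log2 fold changes of 0.60, 0.35 and 0.42, and the phosphatase Ctdsp1 and the ligase subunit Fbxl14 were lower with -0.65 and -0.58 (limma adjusted p from 4.26e-05 to 0.00809). The call of Fbxl5 was lost without any library but T1 replicate 2 (adjusted p up to 0.0267), and that of Gsk3a without T1 replicate 2 or T2 replicate 1 or 3 (up to 0.0129). Protein levels were not measured in these files.

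Upstream inducers of the EMT transcription factors were called in both directions. Of 21 listed, 19 were compared, 2 were called higher and 7 lower (25.1% and 24.4% over all genes), and the median log2 fold change was -0.09. The 2 TGF-beta ligands that passed the test went opposite ways. Tgfb1 had 873, 945 and 755 normalized counts in the T1 libraries and 1836, 1734 and 1713 in the T2 libraries (-1.04, SE 0.10, limma adjusted p = 8.26e-06), and Tgfb2 had 179, 203 and 204 against 8.81, 8.19 and 12.1 (4.21, SE 0.23, adjusted p = 1.94e-07). Tgfb2 passed the filter on low values only through T1 cells. The receptor gene Tgfbr2 was higher in T1 cells by 0.37 (SE 0.09, adjusted p = 0.00498), and this call was lost without T1 replicate 2 or 3 or T2 replicate 2 or 3 (largest adjusted p = 0.0247, limma).

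Among transcriptional inducers, Hmga2, a chromatin protein that activates Snai1 and Twist1, had 3348, 3733 and 3314 normalized counts in the T1 libraries and 9307, 11291 and 10684 in the T2 libraries (log2 fold change -1.59, SE 0.09, limma adjusted p = 2.14e-07). Smad3, the TGF-beta effector, was lower in T1 cells by 1.24 on the log2 scale (SE 0.12, adjusted p = 1.09e-05). Egr1, an immediate early factor that activates Snai1, had 1005, 1218 and 323 against 2675, 6081 and 2669 (-2.26, SE 0.46, adjusted p = 0.0015). The T2 library with the most Snai1, replicate 2, was also the one with the most Egr1.

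Of 20 other transcription factors tied to EMT, 9 were compared, 3 were called higher and 3 lower in T1 cells (25.1% and 24.4% over all genes), and the median log2 fold change was 0.23. Foxf1 (above), the Krüppel-like factor gene Klf8 and the Hippo pathway factor gene Tead1 were higher, the last 2 with log2 fold changes of 1.68 (SE 0.27) and 0.32 (SE 0.07). The call of Tead1 was lost without T1 replicate 1 or 2 or T2 replicate 1 (limma adjusted p up to 0.0134). Fosl1, an AP-1 subunit, had 441, 456 and 292 normalized counts in the T1 libraries and 2316, 2524 and 1744 in the T2 libraries (-2.48, SE 0.18, limma adjusted p = 1.51e-06). Etv4, an ETS factor, and Runx2, the bone factor, were also lower in T1 cells with log2 fold changes of -1.54 (SE 0.09) and -0.98 (SE 0.15).

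Genes that oppose the EMT transcription factors were mostly higher in T1 cells. Of 19 listed, 9 were compared, 7 were called higher and 1 lower (25.1% and 24.4% over all genes), and the median log2 fold change was 2.07. Ovol1, Ovol2 and Esrp1 passed the filter on low values only through T1 cells. Ovol1 and Ovol2, zinc finger repressors of Zeb1, had 200, 185 and 162 and 43.4, 27.0 and 26.4 normalized counts in the T1 libraries, and 5.88, 9.21 and 6.50 and 3.92, 8.19 and 4.64 in the T2 libraries. Their log2 fold changes were 4.5 (SE 0.25, limma adjusted p = 2.09e-07) and 2.35 (SE 0.38, adjusted p = 0.000354). Grhl2, a guardian of epithelial identity, remained well expressed in both populations, with means of 1214 ± 82.5 and 861 ± 57.4 (SD, n = 3), and was higher in T1 cells by 0.49 (SE 0.09, adjusted p = 0.00102).

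The splicing factors Esrp1 and Esrp2, which keep epithelial splice forms, behaved unequally. Esrp1 had 674, 697 and 687 normalized counts in T1 cells and 1 read in all in T2 cells, a ratio of 2111 (95% exact interval 378 to 83422, counting error only). Esrp2 had 970, 934 and 866 against 108, 118 and 68.7 (log2 fold change 3.26, SE 0.19, limma adjusted p = 2.8e-07). Gata3, the luminal factor, was the exception of the list, with 1788, 1502 and 1296 in T1 cells and 3549, 4832 and 3161 in T2 cells (-1.32, SE 0.16, adjusted p = 4.4e-05). The precursor genes of the miR-200 family, Mir200a, Mir200b, Mir200c, Mir141 and Mir429, had 0 reads in all 6 libraries, which were made from polyadenylated RNA and do not measure mature miRNAs.

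Epithelial genes described as repressed by these factors had the largest median of the lists of partners, regulators and targets. Of 22 listed, 16 were compared, 13 were called higher and 0 lower in T1 cells (25.1% and 24.4% over all genes), and the median log2 fold change was 4.01 against -0.0055 for all genes. Dsp, Cldn4, Crb3 and Esrp1 passed the filter only through T1 cells. The remaining 3 (Ocln, Krt18 and Vdr) were not called by limma, with adjusted p of 0.207, 0.394 and 0.105. Cdh1, which encodes E-cadherin, had 13726, 15461 and 15057 normalized counts in the T1 libraries and 484, 460 and 453 in the T2 libraries (4.98, SE 0.08, limma adjusted p = 7.63e-11). Epcam, an adhesion molecule, had 2989, 2931 and 3502 against 37.2, 30.7 and 36.2 (6.46, SE 0.13, limma adjusted p = 4.04e-10). The paper also names EpCam, beside GFP, as a marker used in gating the dissociated primary tumor.

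The desmosome gene Dsp and the tight junction gene Cldn4 were close to absent in T2 cells. Dsp had 4336, 3852 and 4648 normalized counts in the T1 libraries and 3.92, 1.02 and 2.78 in the T2 libraries (log2 fold change 10.31, SE 0.29, limma adjusted p = 2.37e-09). Cldn4 had 4291, 5297 and 7001 against 4.90, 8.19 and 2.78 (9.84, SE 0.30, adjusted p = 3.4e-09). Both populations nevertheless kept Krt18, a simple epithelial keratin, at 23275 ± 2627 and 21658 ± 1762 (SD, n = 3).

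The promoters of this list were read for the same E-box as that of Snai1. CAGGTG was sought on either strand in the 250 bases before each listed start, and a gene counted if any of its starts held it. Cdh1 had no RefSeq entry and was not read. The motif was found for 11 of the 15 genes with an entry (73.3%). It was found for 19.4% of all genes with an entry and for 18.0% of those compared. It was found for 0 of 13 mesenchymal genes. The list was drawn up from genes described as targets, some of them through such E-boxes, so the share is a description of the list. Of 7 compared genes with the motif, 4 were called higher in T1 cells and 3 were not called. Both compared genes without it, Dsp and Cgn, were called higher. With only 2 genes without the motif, whether its presence goes with the difference was not tested.

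Examples chosen after the values were seen are 3 genes with the motif and a large difference, Crb3, Epcam and Cldn4, and 1 with the motif and no call, Krt18. Crb3 encodes a polarity protein and had 140, 101 and 154 normalized counts in T1 cells and 2 reads in all in T2 cells. The windows are from GRCm38.p6, each on the strand of its gene and 5′ to 3′, with CAGGTG or its complement CACCTG in capitals. They are chr17:57061951-57062200 (plus) for Crb3, chr17:87635729-87635978 (plus) for Epcam, chr5:134946935-134947184 (minus) for Cldn4 and chr15:102027966-102028215 (plus) for Krt18. Crb3 holds 3 copies, Epcam 2, and Cldn4 and Krt18 1 each.
Crb3: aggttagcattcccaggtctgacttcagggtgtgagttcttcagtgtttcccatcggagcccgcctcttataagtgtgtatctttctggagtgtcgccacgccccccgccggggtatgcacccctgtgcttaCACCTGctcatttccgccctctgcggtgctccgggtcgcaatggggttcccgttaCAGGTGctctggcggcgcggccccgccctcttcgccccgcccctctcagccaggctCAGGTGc
Epcam: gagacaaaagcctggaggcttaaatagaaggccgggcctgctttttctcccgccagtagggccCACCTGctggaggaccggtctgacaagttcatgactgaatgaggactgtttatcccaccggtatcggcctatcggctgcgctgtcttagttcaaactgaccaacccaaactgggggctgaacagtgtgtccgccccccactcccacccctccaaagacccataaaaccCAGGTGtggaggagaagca
Cldn4: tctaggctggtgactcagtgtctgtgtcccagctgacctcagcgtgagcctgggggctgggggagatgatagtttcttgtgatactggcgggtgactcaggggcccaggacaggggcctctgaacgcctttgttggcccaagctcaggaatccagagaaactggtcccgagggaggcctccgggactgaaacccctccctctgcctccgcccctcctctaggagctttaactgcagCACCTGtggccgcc
Krt18: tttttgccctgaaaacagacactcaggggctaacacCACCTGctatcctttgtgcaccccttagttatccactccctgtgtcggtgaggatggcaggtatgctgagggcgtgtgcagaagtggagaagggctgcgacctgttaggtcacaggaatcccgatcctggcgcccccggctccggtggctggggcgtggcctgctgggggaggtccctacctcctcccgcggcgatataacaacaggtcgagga

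Mesenchymal genes, which EMT transcription factors are known for raising, were called in both directions. Of 24 listed, 15 were compared, 6 were called higher and 7 lower in T1 cells (25.1% and 24.4% over all genes), and the median log2 fold change was -0.14. Vim, which encodes vimentin, had 32268, 35999 and 31658 normalized counts in the T1 libraries and 166904, 137990 and 140278 in the T2 libraries (-2.15, SE 0.10, limma adjusted p = 5.32e-08). Fn1, which encodes fibronectin, went the other way, with 84208, 83423 and 107954 against 11503, 16732 and 9543 (2.90, SE 0.18, adjusted p = 4.51e-07). Cdh2, which encodes N-cadherin, had 0 reads in all 6 libraries.

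Among secreted proteases, Mmp3 had 348, 140 and 164 normalized counts in the T1 libraries and 43142, 40780 and 43404 in the T2 libraries (log2 fold change -7.72, SE 0.26, limma adjusted p = 7.15e-09), while Mmp9 was higher in T1 cells by 1.75 (SE 0.30, adjusted p = 0.0005). S100a4, a calcium binding protein of motile cells, and Tnc, which encodes tenascin C, were lower in T1 cells with log2 fold changes of -3.08 (SE 0.12) and -2.92 (SE 0.33). Col1a1, a collagen chain, had 14.8, 27.9 and 24.4 in T1 cells and 1 read in all in T2 cells, a ratio of 69.7 (95% exact interval 12.1 to 2792, counting error only). It passed the filter on low values only through T1 cells.

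**Figure D5:**
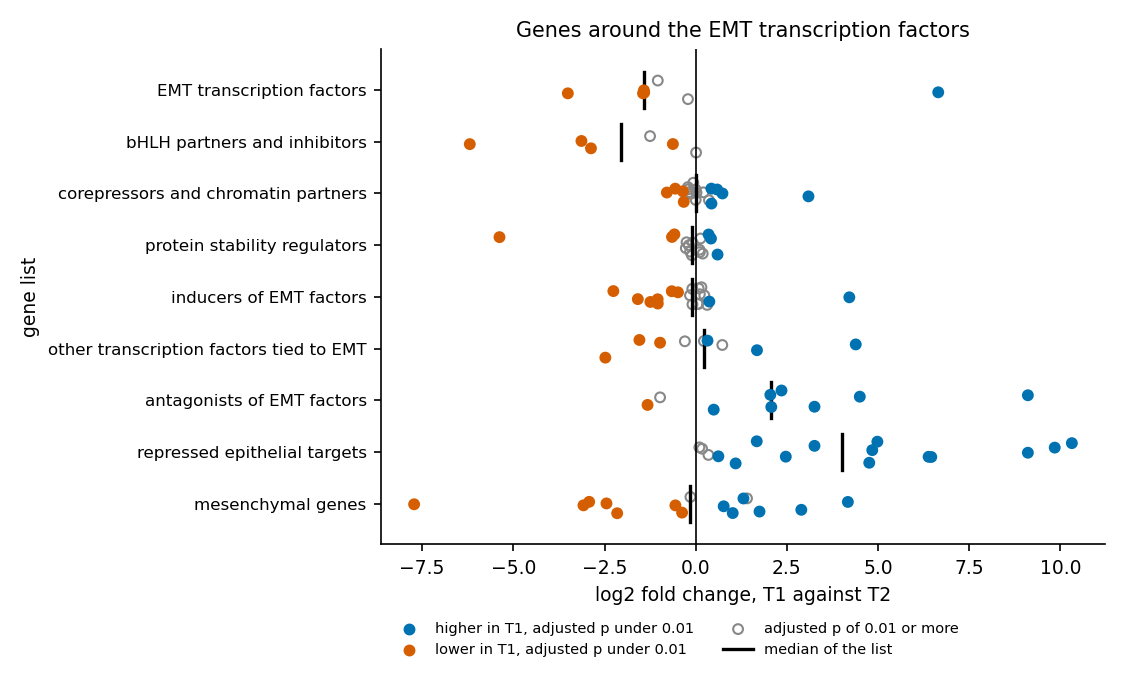
Log2 fold change of T1 against T2 cells for every compared gene of each list, with filled points for calls at a limma adjusted p under 0.01 and a vertical bar for the median of the list. The EMT transcription factors have a median of -1.41, the repressed epithelial targets one of 4.01, and the mesenchymal genes are spread on both sides of 0.

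Since both populations came out of a fibroblast sort, markers of other cell types were read beside these results. Of 8 carcinoma epithelial markers, 7 were compared, 5 were called higher and 0 lower in T1 cells (25.1% and 24.4% over all genes). Krt8 and Krt18 were high in both, while Krt14 (3795 ± 77.0 against 3.04 ± 3.70) and Krt19 (3177 ± 540 against 2.91 ± 2.54, SD, n = 3) were near 0 in T2 cells. Krt14, Krt19 and Cldn4 passed the filter on low values only through T1 cells. The 14 fibroblast markers summed to between 714 and 882 normalized counts in T1 cells and between 2148 and 2674 in T2 cells. Col3a1, Pdgfrb, Thy1, Lum and Mfap5 had 0 reads in all 6 libraries, and the T2 sum came mainly from Pdgfra (1099 ± 171 in T2 and 199 ± 7.98 in T1 cells), the gene of the marker CD140a used in the sort, and Col6a1 (1235 ± 121 and 439 ± 93.0). Postn, a matrix protein gene, had 145 ± 18.1 in T1 cells and no read in T2 cells, at least 49.4-fold above 3 reads in each T2 library.

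The 14 leukocyte markers summed to between 388 and 470 normalized counts in the T1 libraries and 168 and 205 in the T2 libraries. In T1 cells the sum came mostly from Cd14 (340 ± 30.2 in T1 and 83.1 ± 16.9 in T2 cells, SD, n = 3). In T2 cells it came mainly from Cd68, which was not called (94.6 ± 20.7 in T2 and 72.9 ± 14.8 in T1 cells), and Cd14. Tyrobp, Adgre1, Cd3e, Ms4a1 and Fcer1g had 0 reads. The 8 endothelial markers summed to between 272 and 364 in T1 cells and 3461 and 3930 in T2 cells, nearly all from Flt1 (314 ± 41.6 and 3674 ± 235), while Kdr and Emcn had 0 reads. The part of these cell types in the values of the EMT transcription factors was not tested. In bulk RNA, more cells of a type and more RNA per cell cannot be told apart.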

How the data were processed

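RNA-seq of 3 libraries of T1 and 3 of T2 cells was used. Per the labels and the methods, the authors removed adapters with Trimmomatic, aligned reads with TopHat2 to mm10, obtained counts of each gene from HTSeq and normalized with DESeq2. Versions, annotation and strand setting are not given in the sources used here. The deposited signal is thus reads divided by a size factor made by the authors. All values (100%) were whole reads within 0.05 of a read, so reads were recovered. The table held 24129 names, of which 27 had turned into dates and were not used by name, and 0 columns of values were left out.

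Log2(normalized count + 1) was compared with limma 3.58.1 in R 4.3.3 with a variance trend, for 11514 genes with a mean of at least 10, and p-values were adjusted over all of them. A gene was called at an adjusted p under 0.01. The methods also ask for a log2 fold change above 2, counted separately. On simulated data made for T1 against T2, limma found 91 of 100 genes changed 2-fold and 99 of 99 changed 4-fold, with 1 false call among 11509 genes. The simulation gave every gene the same variation between libraries beyond counting error, and changed far fewer genes than differed here. These rates therefore need not hold for the data. Ratios were tested by exact permutation, and intervals for read totals are exact and binomial.

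Gene lengths and positions came from the GENCODE annotation of GRCm38 and promoters from RefSeq. The members and lists were chosen with earlier results of these data known. Genes named were the members, some partners and targets set by name, and from each other list up to 3 genes in each direction with the largest log2 fold change among calls without overlap between T1 and T2. Neighbours, promoters shown and genes given to complete a list were chosen after their values were seen. Alternatives were the value added before logs, the filter, quantile normalization, edgeR 4.0.16, DESeq2 1.42.0, no variance trend, the replicate number as a term, wider thresholds and each library left out. Figures were drawn with matplotlib 3.10.9.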

Additional observations from a re-analysis of the deposited data

How the results depend on the processing

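The number of EMT transcription factors called was 4 to 6 under every alternative run, against 5 as reported. It was 4 with a mean of at least 50, where Prrx1 was no longer compared, 6 without a filter, where Zeb1 was added, and 6 with edgeR, where Snai1 was added. Without each library in turn it was 5 to 6, with Tcf4 added without T1 replicate 3 and Snai1 without T2 replicate 3. The calls of Zeb2, Twist1, Foxc2 and Snai3 held under all alternatives run, and that of Prrx1 under all in which it was compared. Over all genes, wider thresholds (adjusted p under 0.05, log2 fold change above 1) gave 2445 genes in place of 964. Without each library in turn the count of called genes was 4656 to 5797, and the count on the lists was 60 to 63. Ratios between paralogs and partners kept their direction in every alternative run, and without division by length that of Zeb1 to Zeb2 was 3.50 in place of 2.20.

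The replicate number paired the libraries weakly at most. The deviations of libraries with the same number correlated at 0.057, 0.172 and 0.104, and those of differing numbers at between -0.152 and 0.072. T2 replicates 2 and 3 correlated best with the T1 replicate of the same number, and T2 replicate 1 with T1 replicate 3. Whether libraries of the same number share an origin was not tested. With the replicate block, 6 members were called, Snai1 being added (adjusted p = 0.00219), and the count over all genes was 5780, and Id3 was also called (adjusted p = 1.05e-06). Of 58 other named genes, 49 kept their direction and side of the threshold under all alternatives. With each library left out, the log2 fold change of Tcf12, which was not called, ran from -0.0485 to 0.0584, and that of Btrc, also not called, from -0.158 to 0.0248, so that the sign of both turned. The cause was not tested. For members with few reads, depth set the precision.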
